A study of Mus musculus with 6 samples.

Results

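Lysosomal hydrolases, lysosomal membrane proteins and subunits of the proton pump were followed as a set of 46 genes in lung fibroblasts that carried an active, truncated form of Srebf1, a transcription factor that turns on lipid synthesis. The members were chosen by gene symbol, from the known biology of the lysosome, with the cathepsins left out. Earlier results of these data were known when they were chosen, so shares set beside those of all genes are descriptive. All 46 symbols had a row among the 19865 symbols of the deposited count tables, and 44 passed the filter on low counts. The remaining 2, Idua and Galns, which break down glycosaminoglycans, stayed at 3.05 CPM (counts scaled to a common library total, TMM-adjusted) or less in every library.

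Transcriptomes were measured by 3'SAGE-seq, which counts short tags near the 3' end of polyA RNA, in 3 libraries of trSrebf1 fibroblasts and 3 libraries of control fibroblasts. The donor cells were primary lung fibroblasts of Col1a2-GFP transgenic mice, in which the collagen promoter drives the reporter, and had been transduced by retrovirus with inducible, truncated Srebf1c (trSrebf1) or with the control vector, marked by human LNGFR. C57BL/6 recipients of both groups had received 2 mg/kg of bleomycin, were given the cells into the trachea on day 5 and doxycycline on day 7, and the cells were recovered on day 10. Each library held 10000 live sorted cells that carried GFP and hLNGFR and lacked Ter119, EpCAM, CD45, CD31 and CD146. Whether replicates are separate mice or cultures is not in the labels, so p-values cover only the spread among these libraries, which may be technical.

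The lysosome is an acidic compartment in which cells take apart proteins, sugars, glycolipids and lipids that arrive by endocytosis and autophagy. Its enzymes work at low pH, which the vacuolar H+-ATPase (V-ATPase) maintains by pumping protons at the cost of ATP, and its membrane is lined with glycosylated proteins and transporters that export the products. Many lysosomal genes carry an E-box with a CACGTG core near the start site and are known, mainly from work in human cells, as targets of the transcription factor TFEB. In fibroblasts the compartment handles internalised collagen and proteoglycans and also releases cholesterol from lipoproteins.

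Libraries held 4151691 to 4688196 counts in trSrebf1 and 3675146 to 4134354 counts in control cells. The targeted gene Srebf1 stood at 28.6, 31.2 and 24.7 CPM in the trSrebf1 libraries and at 8.39, 5.16 and 7.78 CPM in the control libraries. Tags of the transgene and of the endogenous gene could not be separated. Of the genes taken as a check on SREBP activity, the 9 other than Srebf1 were all called higher. The protease gene Ctsd, a cathepsin and not a member, took 6.71% ± 0.16 of all counts in trSrebf1 and 0.920% ± 0.0521 in control libraries (SD, n = 3 each).

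Of the 44 tested members, 16 were higher and 4 were lower in trSrebf1 cells. That is 36.4% of the members called higher, 9.09% called lower and 45.5% called either way, where all tested genes gave 17.2% higher, 13.0% lower and 30.2% either way. Calls rest on a quasi-likelihood test in edgeR with p-values adjusted by Benjamini-Hochberg over 10194 tested genes and a threshold of 0.05. The median log2 fold change was 0.13 over the tested members and -0.01 over all tested genes. CPM ranges of trSrebf1 and control libraries were apart for 25 of the 44, where this held for 43.4% of all tested genes. With upper-quartile factors in place of TMM, 14 members were higher and 7 lower (31.8% and 15.9%), where all genes gave 15.2% higher and 16.2% lower. Under DESeq2, 15 members were higher and 2 lower (34.1% and 4.55%), where all genes gave 15.5% and 11.3%. The count of lower members was 1 without trSrebf1 replicate 1 or trSrebf1 replicate 3, and 2 without control replicate 2 or control replicate 3. RNA was taken from pools of cells, so fewer cells expressing a gene and less RNA per cell cannot be told apart.

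The members had more tags than most genes, and calls among all genes were more frequent at higher levels. The median over genes of the mean tag level was 38.5 CPM for tested members and 12.7 CPM for all tested genes. At 100 CPM or more, 6 of 11 members and 30.1% of all genes were higher, and 1 of 11 members and 21.2% of all genes were lower. Between 10 and 100 CPM, 9 of 24 members and 20.1% of all genes were higher, and 2 of 24 members and 14.6% of all genes were lower. Below 10 CPM, 1 of 9 members and 10.3% of all genes were higher, and 1 of 9 members and 8.96% of all genes were lower.

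**Figure D1:**
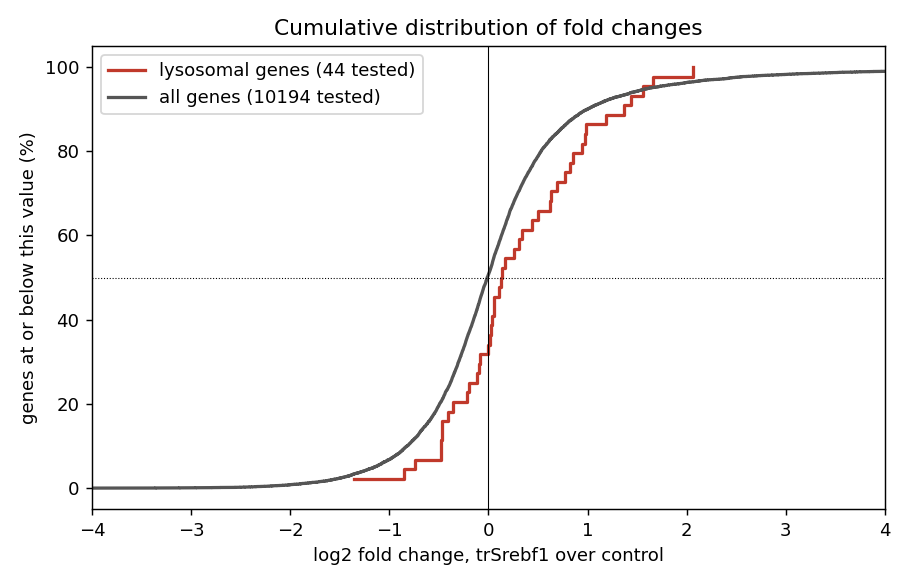
Cumulative share of genes (y axis, %) at or below a log2 fold change of trSrebf1 over control (x axis), for 44 tested lysosomal genes (red) and 10194 tested genes (grey). The curve of the lysosomal genes crosses 50% at 0.13 and that of all genes at -0.01.

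The list did not move as a block. Fold changes on the log2 scale ran from -1.35 (Gusb) to 2.06 (Neu1), with 29 members above 0 and 15 below. The change was over 1 in size for 7 members, Neu1, Atp6v1g1, Arsa, Ctns, Mcoln1 and Atp6v0b above 0 and Gusb, which did not pass the threshold, below 0. The 4 lower members were hydrolases, and none of the 9 membrane members and none of the 14 proton pump members was called lower, where 13.0% of all tested genes were. With upper-quartile factors the membrane members Lamp2 and Scarb2 were called lower.

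**Figure D2:**
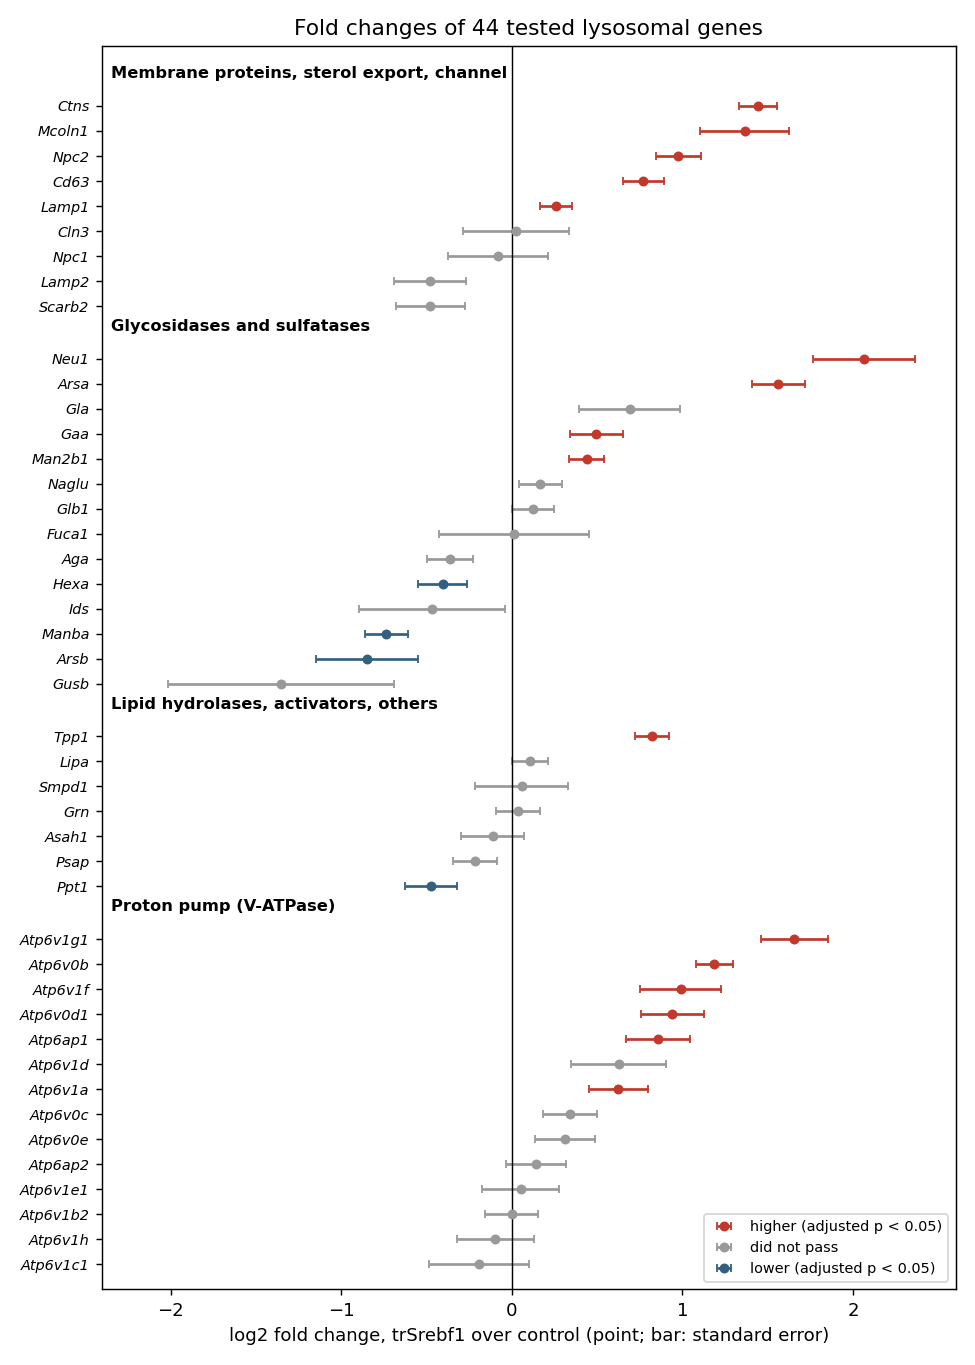
Log2 fold change of trSrebf1 over control (x axis) with its standard error (bar) for the 44 tested lysosomal genes, grouped by role. Red marks genes called higher, blue genes called lower and grey genes that did not pass an adjusted p of 0.05. The proton pump group runs from -0.19 (Atp6v1c1) to 1.66 (Atp6v1g1) and the glycosidases and sulfatases from -1.35 (Gusb) to 2.06 (Neu1).

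The promoters of the members were searched for the E-box core, since it is the letter pattern best known in front of lysosomal genes, and for a sterol element of the kind that SREBP proteins bind. RefSeq windows (GRCm38.p6, 250 bases before to 50 bases after a start site) were at hand for 38 of the 46 members. On either strand, CACGTG lay in the windows of 12 of the 38 (31.6%) and of 2187 of 27025 genes (8.09%). Those 27025 are all genes with a RefSeq window, and they include genes too scarce here to be tested. The longer form TCACGTG, which contains CACGTG, lay in the same 12 members and in 4.29% of all genes. TCACNCCAC was found in 0 of the 38 and in 1.44% of all genes, which says only that these letters are not in these windows. Letters alone do not show which protein binds them, so the counts of CACGTG and TCACNCCAC cannot tell TFEB from SREBP proteins. Which protein binds either pattern in these cells was not tested. By call, CACGTG was found in 7 of 15 higher members, 0 of 4 lower members and 5 of 19 others. This split was not made over all tested genes, and 4 lower members are too few to judge a share. The stretches around the cores of the 7 higher members are printed 5′ to 3′ on the strand of the gene, with the cores in capitals, to show how near they lie to the start site and how often they recur.
Lamp1: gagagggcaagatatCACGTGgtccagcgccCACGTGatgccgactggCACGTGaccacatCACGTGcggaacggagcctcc
Mcoln1: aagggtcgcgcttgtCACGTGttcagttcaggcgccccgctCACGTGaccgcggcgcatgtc
Gaa: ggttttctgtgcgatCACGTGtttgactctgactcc
Arsa: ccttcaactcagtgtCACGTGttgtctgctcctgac
Atp6v0b: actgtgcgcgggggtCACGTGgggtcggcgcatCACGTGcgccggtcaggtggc
Atp6v0d1: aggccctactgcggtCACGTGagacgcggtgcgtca
Atp6v1a: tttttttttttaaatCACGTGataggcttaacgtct

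These stretches lie at chr8:13159085-13159166 (Lamp1, plus strand), chr8:3500433-3500494 (Mcoln1, plus strand), chr11:119267808-119267843 (Gaa, plus strand), chr15:89477420-89477455 (Arsa, minus strand), chr4:117887327-117887380 (Atp6v0b, minus strand), chr8:105566047-105566082 (Atp6v0d1, minus strand) and chr16:44139370-44139405 (Atp6v1a, minus strand). Counted from the RefSeq start site as base 1, the first core began at -61 in Lamp1, -71 in Mcoln1, -140 in Gaa, -16 in Arsa, -36 in Atp6v0b, -3 in Atp6v0d1 and -131 in Atp6v1a. RefSeq starts can differ from the ends of the GENCODE genes, and a core of Mcoln1 and that of Atp6v1a lie inside the GENCODE gene. Lamp1 held 4 cores, Mcoln1 and Atp6v0b 2 each, and the others printed here 1. Of the members with a core that were not called, Cln3 and Gla held 2 each, and Glb1, Naglu and Atp6v0e 1 each. Their first core began at -149 in Cln3, -227 in Gla, -48 in Glb1, -73 in Naglu and 4 in Atp6v0e. The cores of Cln3, Naglu and Atp6v0e also lie inside the GENCODE gene. The median log2 fold change was 0.56 over the 12 members with a core and 0.06 over the 25 tested members with a window and no core. The same medians were not taken over all tested genes, so whether this difference is particular to the members is not known. Neu1 and Ctns, among the largest rises, had no core in their windows, and Cln3, Gla, Glb1, Naglu and Atp6v0e had a core and did not pass the threshold. Neither binding to these cores nor a part of them in the changes was tested.

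Membrane proteins and the proteins that move small molecules out of the lysosome came next. Of 9 members, 5 rose and 0 fell (55.6% and 0%, where all tested genes gave 17.2% and 13.0%). Ctns (chromosome 11, 73183596 to 73199042, minus strand, GENCODE M21 on GRCm38), which encodes the cystine exporter cystinosin, stood at 202, 195 and 204 CPM in trSrebf1 libraries and at 77.1, 73.8 and 70.1 CPM in control libraries. Every trSrebf1 library lay well above every control library, and Ctns rose by 1.44 on the log2 scale (SE 0.11, adjusted p = 2.40e-08). Mcoln1 (chromosome 8, 3500457 to 3515232, plus strand), which encodes the lysosomal calcium channel TRPML1, stood at 18.1, 20.6 and 13.2 CPM in trSrebf1 and at 6.56, 5.42 and 8.02 CPM in control cells. The groups did not overlap, and Mcoln1 rose by 1.36 (SE 0.26, adjusted p = 5.57e-04).

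Npc2 (chromosome 12, 84754562 to 84773152, minus strand), the soluble protein that hands cholesterol to Npc1 inside the lysosome, stood at 97.9, 103 and 96.2 CPM in trSrebf1 libraries and at 48.0, 56.2 and 46.7 CPM in control libraries. It rose by 0.98 on the log2 scale (SE 0.13, adjusted p = 1.79e-05), with no overlap of the groups. Its partner Npc1, which spans the membrane, averaged 7.09 ± 0.61 CPM in trSrebf1 and 7.49 ± 2.16 CPM in control cells (SD, n = 3 each), and did not pass the threshold (adjusted p = 0.867). Cd63, a tetraspanin of late endosomes, stood at 261, 265 and 259 CPM in trSrebf1 and at 127, 172 and 161 CPM in control cells. Cd63 rose by 0.77 (SE 0.12, adjusted p = 7.21e-05), but the last 500 bases of its transcript match the pseudogene Cd63-ps, so its value is uncertain.

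Lamp1 (chromosome 8, 13159161 to 13175338, plus strand), the abundant glycoprotein that lines the lysosomal membrane, stood at 2210, 2458 and 2346 CPM in trSrebf1 libraries and at 2028, 1860 and 1981 CPM in control libraries. The groups did not overlap, but the rise was small, 0.26 on the log2 scale (SE 0.09, adjusted p = 0.0493). That call was lost under 13 of 16 alternatives, with adjusted p from 0.0253 to 0.252, among them leaving out trSrebf1 replicate 1 (0.0583), trSrebf1 replicate 2 (0.160), trSrebf1 replicate 3 (0.132), control replicate 2 (0.141) or control replicate 3 (0.171). Its close relative Lamp2 went the other way in the mean, at 25.4, 22.6 and 27.6 CPM in trSrebf1 and 35.9, 45.9 and 23.8 CPM in control cells, and did not pass the threshold (adjusted p = 0.102). The low control value was that of replicate 3, and without it the log2 fold change of Lamp2 was -0.71 (adjusted p = 0.00975).

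Scarb2, the receptor that carries glucocerebrosidase to the lysosome, averaged 20.7 ± 5.40 CPM in trSrebf1 and 29.0 ± 2.64 CPM in control cells (SD, n = 3 each, adjusted p = 0.0861). Scarb2 passed the threshold with upper-quartile factors (adjusted p = 0.0373). Cln3, a membrane protein whose loss in humans causes a childhood storage disease of neurons, averaged 8.63 ± 2.69 and 8.40 ± 2.52 CPM in trSrebf1 and control cells (adjusted p = 0.965).

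Enzymes that remove sugars and sulfate groups were divided. Of 14 tested members 4 rose, 3 fell and 7 did not pass the threshold. The rises and falls were 28.6% and 21.4%, where all tested genes gave 17.2% and 13.0%. Neu1 (chromosome 17, 34931253 to 34935953, plus strand), the sialidase that trims terminal sialic acids, stood at 17.2, 12.2 and 16.0 CPM in trSrebf1 libraries and at 4.72, 2.32 and 3.77 CPM in control libraries. The groups lay far apart, and Neu1 had the largest fold change of the 44 tested members, a log2 rise of 2.06 (SE 0.30, adjusted p = 3.93e-05). Arsa (chromosome 15, 89472476 to 89477425, minus strand), the sulfatase that acts on sulfatide, stood at 66.9, 72.8 and 86.3 CPM in trSrebf1 and at 24.6, 27.3 and 24.5 CPM in control cells. It rose by 1.56 on the log2 scale (SE 0.16, adjusted p = 5.38e-07). An antisense gene, C230037L18Rik, overlaps exons of Arsa, and use of strand in counting is not given in the sources used here.

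Gaa, which degrades glycogen, stood at 61.7, 58.1 and 77.0 CPM in trSrebf1 and at 39.9, 52.1 and 47.7 CPM in control cells. The lowest trSrebf1 library was close to the highest control library, and Gaa rose by 0.50 on the log2 scale (SE 0.16, adjusted p = 0.0230). The call of Gaa was lost without trSrebf1 replicate 3 (adjusted p = 0.129), control replicate 1 (0.0746) or control replicate 3 (0.0550), and with upper-quartile factors (0.0537) or total counts (0.0649), and its adjusted p ran from 0.00923 to 0.129. Man2b1, an alpha-mannosidase of N-glycan breakdown, stood at 448, 460 and 470 CPM in trSrebf1 and at 366, 327 and 323 CPM in control cells. Man2b1 rose by 0.44 (SE 0.10, adjusted p = 0.00304), with no overlap between the groups.

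Manba (chromosome 3, 135485611 to 135571404, plus strand), the beta-mannosidase that acts after it in the same route, moved in the opposite direction. Manba stood at 114, 125 and 130 CPM in trSrebf1 libraries and at 244, 193 and 179 CPM in control libraries, and fell by 0.74 on the log2 scale (SE 0.13, adjusted p = 2.08e-04). Of the 4 members called lower, Manba alone kept its call under all 16 alternatives.

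Hexa, the alpha subunit of beta-hexosaminidase, which degrades the ganglioside GM2, stood at 43.0, 43.1 and 41.1 CPM in trSrebf1 and at 52.7, 62.4 and 53.5 CPM in control cells. It fell by 0.41 (SE 0.14, adjusted p = 0.0416), a call lost under 8 of 16 alternatives (adjusted p from 0.0152 to 0.167). Among them were leaving out trSrebf1 replicate 1 (0.0880), trSrebf1 replicate 2 (0.0744), trSrebf1 replicate 3 (0.116), control replicate 2 (0.167) or control replicate 3 (0.0577). Arsb, the sulfatase of dermatan and chondroitin sulfate, stood at 6.67, 8.12 and 3.65 CPM in trSrebf1 and at 9.44, 12.4 and 11.3 CPM in control cells, a fall of 0.85 (SE 0.30, adjusted p = 0.0400). The call of Arsb was lost without trSrebf1 replicate 1 (adjusted p = 0.0737), trSrebf1 replicate 3 (0.186), control replicate 2 (0.127) or control replicate 3 (0.0822) and under DESeq2 (0.0676), with adjusted p from 0.0204 to 0.186. Exons of Hexa and Arsb overlap genes on the opposite strand.

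The other 7 tested glycosidases and sulfatases did not pass the threshold. Gusb, the beta-glucuronidase, had 0, 11 and 17 counts in trSrebf1 and 18, 27 and 22 counts in control libraries, and differed by -1.35 on the log2 scale (SE 0.66, adjusted p = 0.157). The groups of Gusb did not overlap, and trSrebf1 replicate 1, with no tag, stood apart from the other two. Gla, which removes terminal galactose from globotriaosylceramide, averaged 11.0 ± 1.27 CPM in trSrebf1 and 6.84 ± 2.78 CPM in control cells (SD, n = 3 each, adjusted p = 0.0902), and passed the threshold without control replicate 1 (adjusted p = 0.0145). Aga, which splits the bond between asparagine and sugar, averaged 79.7 ± 10.4 and 102 ± 11.2 CPM in trSrebf1 and control cells (adjusted p = 0.0522). It was called lower under 6 of 16 alternatives, among them leaving out trSrebf1 replicate 2 (adjusted p = 0.0255) or control replicate 1 (0.0199).

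Glb1, the beta-galactosidase behind a common stain for senescent cells, stood at 317, 460 and 386 CPM in trSrebf1 libraries and at 347, 347 and 372 CPM in control libraries. The trSrebf1 libraries lay on either side of the control libraries, and the adjusted p was 0.501. Naglu, which acts on heparan sulfate, averaged 255 ± 29.2 CPM in trSrebf1 and 227 ± 36.8 CPM in control cells (adjusted p = 0.361). Fuca1 and Ids, a fucosidase and a sulfatase of glycosaminoglycans, were at 5.16 CPM or less in every library, with adjusted p of 0.989 and 0.462.

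Enzymes and activators of lipid breakdown, together with Tpp1 and Ppt1, which act on proteins, formed a role of 7 members. Of these 1 rose, 1 fell and 5 did not pass the threshold, so that 28.6% were called, near the 30.2% of all tested genes, and the calls were those of Tpp1 and Ppt1. Tpp1 (chromosome 7, 105744811 to 105752235, minus strand), a peptidase that clips tripeptides from the ends of proteins, stood at 1479, 1747 and 1581 CPM in trSrebf1 libraries and at 871, 940 and 908 CPM in control libraries. The groups lay far apart, and Tpp1 rose by 0.82 on the log2 scale (SE 0.10, adjusted p = 5.76e-06). Ppt1, which removes palmitate from proteins, stood at 49.9, 65.7 and 48.2 CPM in trSrebf1 and at 82.9, 65.5 and 78.6 CPM in control cells. Ppt1 fell by 0.47 (SE 0.15, adjusted p = 0.0267), although trSrebf1 replicate 2 and control replicate 2 were nearly equal. The call of Ppt1 was lost without trSrebf1 replicate 1 (adjusted p = 0.111), trSrebf1 replicate 3 (0.116), control replicate 1 (0.0791) or control replicate 3 (0.0741), with adjusted p from 0.00740 to 0.116. Its exons overlap those of Cap1 on the opposite strand over 129 bases.

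Lipa, the acid lipase that frees cholesterol and fatty acids from lipoprotein lipids, stood at 167, 170 and 156 CPM in trSrebf1 and at 154, 149 and 155 CPM in control cells. The groups of Lipa did not overlap, but a difference of 0.10 on the log2 scale (SE 0.11) did not pass the threshold (adjusted p = 0.508). Psap, the precursor of the saposins that present glycolipids to the hydrolases, averaged 135 ± 24.2 CPM in trSrebf1 and 157 ± 9.49 CPM in control cells (SD, n = 3 each, adjusted p = 0.232). Without trSrebf1 replicate 2, its highest trSrebf1 library, the log2 fold change of Psap was -0.37 (adjusted p = 0.0419). Grn, which encodes progranulin, averaged 95.4 ± 10.7 and 93.1 ± 7.91 CPM in trSrebf1 and control cells (adjusted p = 0.872). The acid ceramidase Asah1 and the acid sphingomyelinase Smpd1 gave log2 fold changes of -0.11 (SE 0.19) and 0.06 (SE 0.27), with adjusted p of 0.698 and 0.905.

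The V-ATPase has a membrane sector, V0, that conducts protons, and a cytosolic sector, V1, that hydrolyses ATP. Of its 14 members, 6 rose and 0 fell (42.9% and 0%, where all tested genes gave 17.2% and 13.0%). Of the V0 subunits 2 of 4 rose, of the V1 subunits 3 of 8, and of the accessory proteins 1 of 2. Atp6v0b (chromosome 4, 117884326 to 117887333, minus strand), a subunit of the proton-conducting ring, stood at 2106, 2081 and 2109 CPM in trSrebf1 libraries and at 777, 1005 and 983 CPM in control libraries. The trSrebf1 libraries were nearly equal and lay far above the control libraries, and Atp6v0b rose by 1.19 on the log2 scale (SE 0.11, adjusted p = 2.08e-07). An antisense gene, Gm12841, overlaps its exons over 243 bases. Atp6v0d1, which couples the ring to the central stalk, stood at 53.8, 43.6 and 64.2 CPM in trSrebf1 and at 34.9, 23.5 and 25.9 CPM in control cells, and rose by 0.94 (SE 0.19, adjusted p = 7.70e-04).

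Atp6v0c, the main subunit of the ring, had 191, 159 and 172 counts in trSrebf1 and 101, 133 and 146 counts in control libraries. Its row cannot be read alone, because the processed pseudogene Atp6v0c-ps2, with a near-identical 3' end, had 189, 176 and 158 counts in trSrebf1 and 126, 122 and 151 in control libraries. Atp6v0c alone gave 0.34 on the log2 scale (SE 0.16, adjusted p = 0.124), and with the rows summed, a choice made after the data were seen, it was 0.31 (adjusted p = 0.0877). Atp6v0e averaged 30.4 ± 4.88 CPM in trSrebf1 and 24.4 ± 1.07 CPM in control cells (adjusted p = 0.202), with no overlap of the groups.

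Of the 3 V1 subunits that rose, 2 belong to the stalks and 1 to the catalytic head. Atp6v1g1 (chromosome 4, 63544772 to 63550750, plus strand), a subunit of the peripheral stalks, stood at 106, 74.6 and 110 CPM in trSrebf1 libraries and at 25.4, 41.0 and 25.9 CPM in control libraries. It rose by 1.66 on the log2 scale (SE 0.20, adjusted p = 9.31e-06), although replicate 2 was the lowest of the trSrebf1 and the highest of the control libraries. Atp6v1f, a subunit of the central stalk, stood at 27.1, 17.8 and 20.6 CPM in trSrebf1 and at 8.39, 10.6 and 13.9 CPM in control cells. Atp6v1f rose by 0.99 (SE 0.24, adjusted p = 0.00395), and 256 bases of its 3' end match a pseudogene at 98.8% identity, so its value is uncertain.

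The catalytic head of V1 was divided. Atp6v1a, the subunit that binds and splits ATP, stood at 39.8, 54.8 and 60.5 CPM in trSrebf1 and at 31.7, 31.7 and 37.0 CPM in control cells, and rose by 0.62 (SE 0.17, adjusted p = 0.0105). That call was lost without trSrebf1 replicate 3 (adjusted p = 0.0631), the highest of all alternatives, which began at 0.00167. Atp6v1b2, its partner in the head, stood at 58.9, 66.7 and 48.4 CPM in trSrebf1 and at 66.3, 57.3 and 50.7 CPM in control cells (adjusted p = 0.994). The stalk subunits Atp6v1d and Atp6v1e1 gave log2 fold changes of 0.63 (SE 0.28, adjusted p = 0.102) and 0.05 (SE 0.23, adjusted p = 0.891). Atp6v1c1 and Atp6v1h, which regulate the joining of the sectors, gave -0.19 (SE 0.29, adjusted p = 0.669) and -0.10 (SE 0.23, adjusted p = 0.797).

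Of the accessory proteins, Atp6ap1, which takes part in assembly of the pump, stood at 37.6, 35.0 and 44.5 CPM in trSrebf1 and at 17.3, 26.8 and 20.5 CPM in control cells. It rose by 0.86 on the log2 scale (SE 0.19, adjusted p = 0.00177). Atp6ap2, known also as the prorenin receptor, averaged 33.6 ± 6.34 CPM in trSrebf1 and 30.5 ± 1.74 CPM in control cells (SD, n = 3 each, adjusted p = 0.599).

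**Figure D3:**
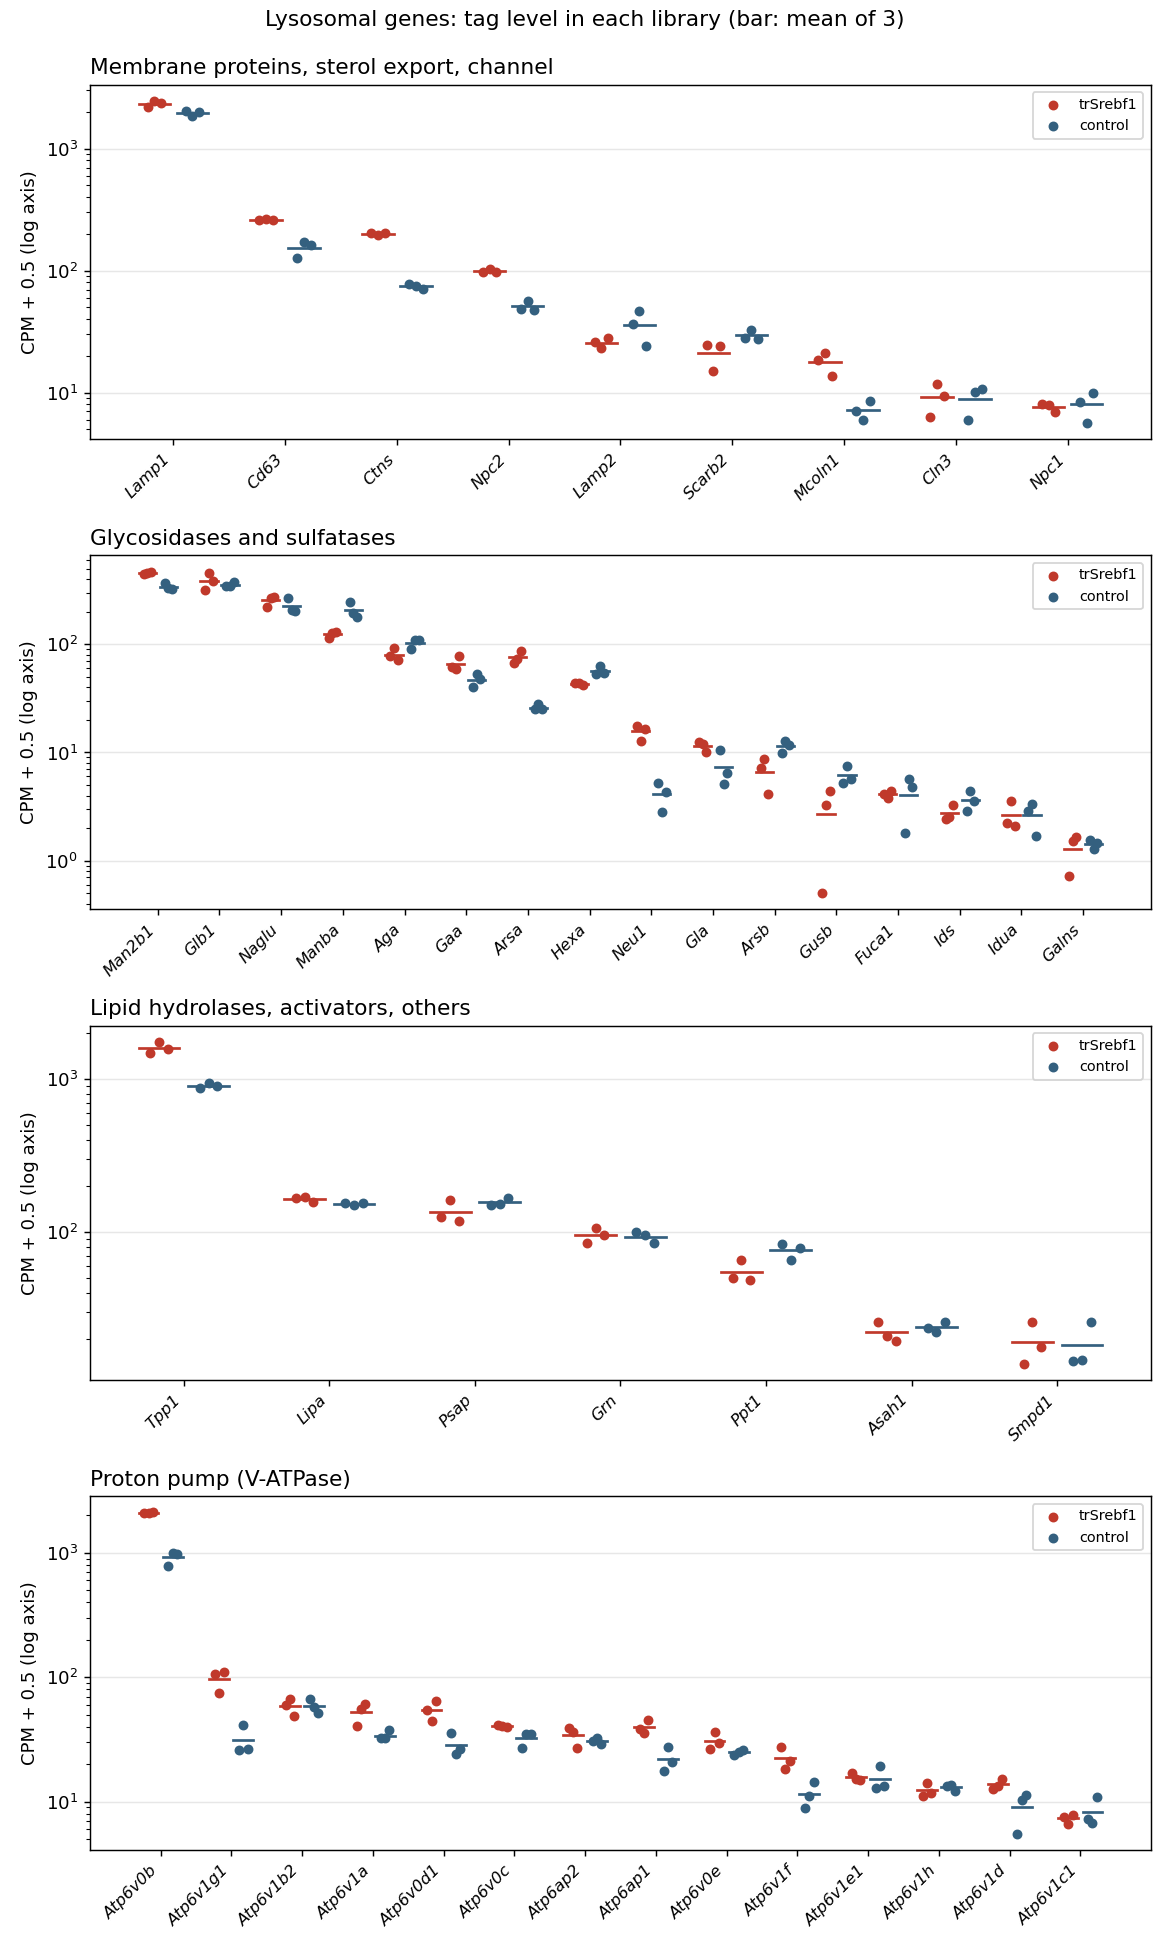
CPM plus 0.5 on a log axis for each of the 46 lysosomal genes, by role, in the 3 trSrebf1 libraries (red, left) and the 3 control libraries (blue, right), with the mean as a bar. The groups of Neu1, Arsa, Ctns, Atp6v0b and Atp6v1g1 lie clearly apart, while those of Glb1, Grn and Atp6v1b2 overlap.

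Tags of the 46 members together made up 0.890% ± 0.0185 of all counts in trSrebf1 and 0.650% ± 0.0290 in control libraries (SD, n = 3 each). With Ctsd left out of the totals the shares were 0.954% ± 0.0214 and 0.657% ± 0.0296 in trSrebf1 and control cells. The sum of the proton pump members was 2571 ± 34.3 CPM in trSrebf1 and 1235 ± 138 CPM in control cells, and that of the membrane members 2978 ± 123 and 2320 ± 54.2 CPM. The lipid role summed to 2092 ± 183 CPM in trSrebf1 and 1426 ± 27.6 CPM in control cells, but Tpp1 set that direction. Without Tpp1 the other 6 members of the role summed to 490 ± 52.6 CPM in trSrebf1 and 519 ± 19.1 CPM in control cells, with overlapping libraries. The glycosidases and sulfatases summed to 1531 ± 121 CPM in trSrebf1 and 1394 ± 65.4 CPM in control cells.

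Most of the difference in the summed tags came from 3 genes. Atp6v0b, Tpp1 and Lamp1 together gave 6039 CPM in trSrebf1 and 3784 CPM in control cells, and 80.6% of the net difference of the whole set. The other 43 members summed to 2976, 3262 and 3161 CPM in trSrebf1 libraries and to 2629, 2592 and 2550 CPM in control libraries. Their ratio of means was 1.21, against 1.44 for all 46.

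**Figure D4:**
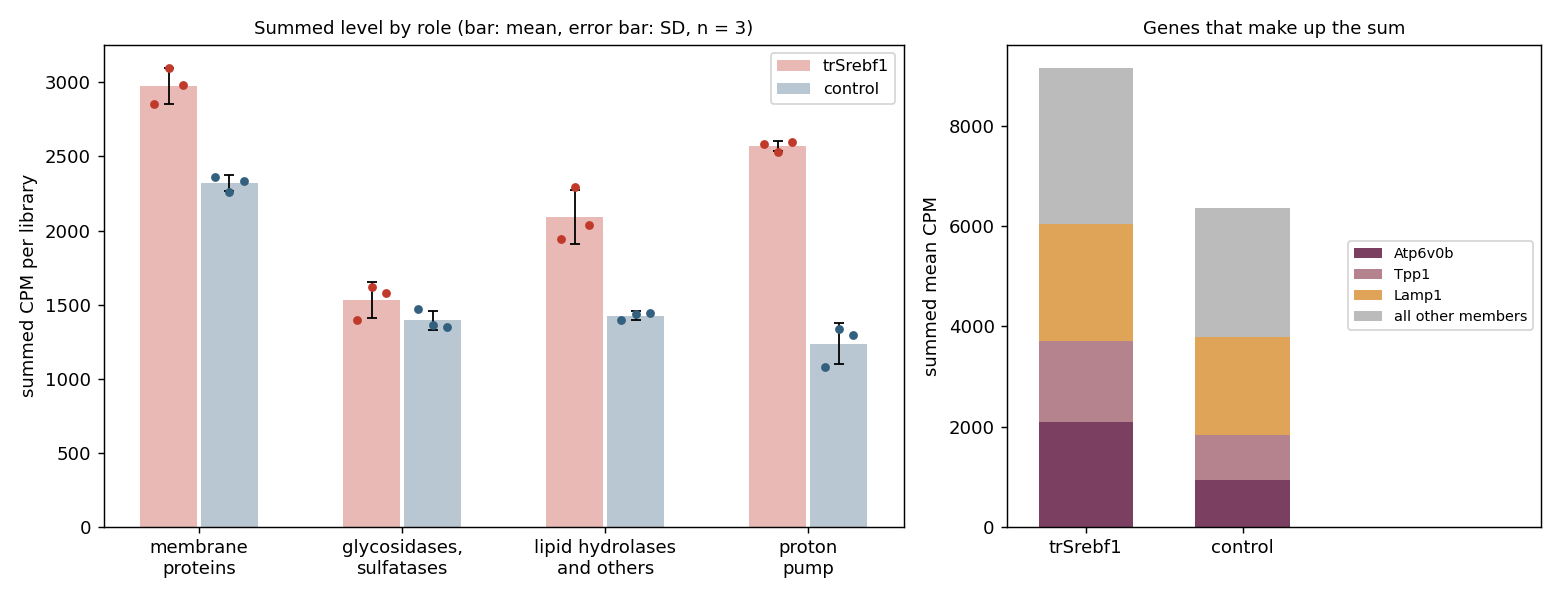
Left, summed CPM (y axis) of the members of each role per library (points), with mean (bar) and SD (error bar), for trSrebf1 (red) and control (blue). Right, the summed mean CPM of all 46 genes split into Atp6v0b, Tpp1, Lamp1 and the other 43. The proton pump sum is 2571 CPM in trSrebf1 and 1235 CPM in control cells, and Atp6v0b makes up most of that gap.

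Lysosomal genes outside the 46 were taken from lists of further hydrolases and membrane proteins, further V-ATPase isoforms, and genes that deliver enzymes to the lysosome or assemble the pump. Of 30 tested hydrolases and membrane proteins, 8 rose and 3 fell (26.7% and 10.0%, where all tested genes gave 17.2% and 13.0%), with a median log2 fold change of -0.03. Scpep1, a serine carboxypeptidase, averaged 252 ± 3.32 CPM in trSrebf1 and 164 ± 14.7 CPM in control cells and rose by 0.62 (SE 0.11, adjusted p = 2.29e-04). Tmem192, a lysosomal membrane protein, rose by 1.88 (SE 0.41, adjusted p = 0.00170) at 6.19 ± 1.20 CPM in trSrebf1 and 1.65 ± 0.66 CPM in control cells. The phospholipase Pla2g15 fell by 0.96 (SE 0.20, adjusted p = 0.00120), with 12.5 ± 1.85 CPM in trSrebf1 and 24.3 ± 1.49 CPM in control cells (SD, n = 3 each).

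Among the V-ATPase isoforms 4 were tested, all of them forms of the large membrane subunit a. Of these 2 rose and 1 fell (50% and 25%, where all tested genes gave 17.2% and 13.0%). Atp6v0a1 averaged 14.5 ± 2.63 CPM in trSrebf1 and 6.28 ± 0.34 CPM in control cells and rose by 1.20 (SE 0.25, adjusted p = 0.00144). Tcirg1, which encodes the a3 form, rose by 0.54 (SE 0.15, adjusted p = 0.00938), a call lost without control replicate 3 (adjusted p = 0.0596). Atp6v0a4 fell by 1.78 (SE 0.51, adjusted p = 0.0132), at 1.16 ± 0.39 CPM in trSrebf1 and 4.05 ± 2.09 CPM in control cells, and its call was lost without trSrebf1 replicate 1 (adjusted p = 0.0655) or control replicate 2 (0.135). Atp6v0a2 had an adjusted p of 0.816.

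Of 25 delivery and assembly genes, 4 rose and 1 fell, with a median log2 fold change of 0.23. These 16% and 4% compare with 17.2% and 13.0% of all tested genes, so the share of rises was near that of all genes. The pump assembly factor Tmem199 rose by 0.90 (SE 0.16, adjusted p = 3.41e-04), with 39.0 ± 3.29 CPM in trSrebf1 and 20.8 ± 0.74 CPM in control cells. Vps11 and Vps16, core subunits of the complexes that tether vesicles to lysosomes, rose by 0.58 (SE 0.12, adjusted p = 0.00140) and 0.54 (SE 0.14, adjusted p = 0.00785). Igf2r, the receptor that sorts mannose-6-phosphate tagged hydrolases, averaged 207 ± 4.59 CPM in trSrebf1 and 148 ± 16.3 CPM in control cells and rose by 0.48 (SE 0.11, adjusted p = 0.00280). The gene that fell was the sorting receptor Sort1, chosen after its values were seen. It fell by 1.20 (SE 0.37, adjusted p = 0.0199). Its call was lost without trSrebf1 replicate 1 (adjusted p = 0.0567), trSrebf1 replicate 2 (0.0549) or control replicate 2 (0.107) and under DESeq2 (0.0507).

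Lysosomal genes are also abundant in macrophages, which share the injured lung with the donor cells. The 11 macrophage markers with a row summed to 18.9 to 37.7 CPM in trSrebf1 and to 14.6 to 67.4 CPM in control libraries, ranges that overlap. The macrophage lysozyme Lyz2 had 1, 2 and 1 counts in trSrebf1 and 5, 0 and 2 in control libraries, and Csf1r had 3, 5 and 1 in trSrebf1 and 1, 0 and 0 in control libraries. Cd68, a lysosomal protein of macrophages, had 0, 1 and 0 counts in trSrebf1 and 2, 3 and 0 in control libraries. Of the 4 tested macrophage markers, Cd74, which is also carried to the lysosome, rose by 2.73 (SE 0.32) and Tyrobp fell by 2.39 (SE 0.57). C1qa and Laptm5 did not pass the threshold (adjusted p = 0.426 and 0.179), and their tags were uneven between libraries. C1qa had 11, 23 and 72 counts in trSrebf1 and 164, 47 and 32 in control libraries. Laptm5 had 4, 0 and 16 counts in trSrebf1 and 51, 25 and 8 in control libraries. Fibroblast markers were present in every library, at 21020 to 23965 CPM in sum in trSrebf1 and 29888 to 35119 CPM in control cells. Of the 8, 7 were called lower (87.5%, where 13.0% of all tested genes were). Summed markers were 7.31 to 22.1 CPM in trSrebf1 and 9.70 to 15.1 CPM in control libraries for epithelium, and 122 to 163 CPM in trSrebf1 and 62.7 to 76.6 CPM in control libraries for pericytes and smooth muscle. Of the 5 tested markers of that last list, Cspg4 rose and 4 fell. Cspg4 averaged 121 CPM in trSrebf1 and 16.4 CPM in control cells, and it alone set the direction of that sum. Endothelial and erythroid sums were at 2.06 CPM or less in every library. Of the 5 neutrophil markers only Csf3r had a row, at 9.64 CPM or less in every library, so the level of neutrophil tags could not be judged. The part of any of these cells in the changes of the lysosomal genes was not tested.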

How the data were processed

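The deposited values are raw counts of 3'SAGE-seq tags by gene symbol, from an Ion Proton, per the labels. The submitters' processing notes list Bowtie2 2.2.5 and mm10. How tags were counted, on which annotation and with or without strand is not given in the sources used here.

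From these counts, edgeR 4.0.16 (R 4.3.3) gave the tests (TMM, filterByExpr with a minimum count of 10 and minimum total of 15, robust glmQLFit, glmQLFTest, group as the only term, prior count 0.125). P-values were adjusted by Benjamini-Hochberg over all 10194 tested genes, with a two-sided threshold of 0.05. CPM use TMM-scaled library sizes, and the SE is the log2 fold change divided by the square root of F. The procedure was checked on simulated data. It recovered 63.4% of genes set to change by 1 on the log2 scale and 96.8% of those set to change by 2. There were 11 false calls among unchanged genes. Only 200 genes were set to change there, where 3083 were called here, so these rates may differ from those of this comparison. A member that did not pass the threshold is not shown to be unchanged. No library was a second copy of another. Tags were not divided by transcript length, so a CPM is a share of tags, and sums and strata of CPM weigh genes by their tags.

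Named members: in each role the 5 largest called changes, the highest mean CPM and calls against the majority, and of each list of other lysosomal genes the 4 smallest p, of which 1 is not reported here. Members and lists were chosen with earlier results of these data known. Gene positions are from GENCODE M21, promoters from RefSeq GRCm38.p6. The last 500 bases of transcripts were searched for copies with blastn 2.17.0 (95% identity or more over at least 100 bases). The alternatives tried were other scaling (RLE, upper-quartile, total counts, Ctsd left out), other filters, DESeq2 1.42.0, limma-voom 3.58.1, a replicate block, leaving out each library and, added after the data were seen, Atp6v0c summed with Atp6v0c-ps2.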

Additional observations from a re-analysis of the deposited data

How the results depend on the processing

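Over 16 alternatives, 14 of the 20 called members and 18 of the 24 others kept their side of the threshold in every one, and no called member changed direction. Of 701 member values, 36 lost a call and 12 gained one. The count of lower members, 4, was 7 with upper-quartile factors and 2 under DESeq2 (over all genes 1328, 1649 with upper-quartile factors and 1149 under DESeq2), and ran from 1 to 5 when 1 library was left out, being 1 without trSrebf1 replicate 1 or trSrebf1 replicate 3 and 2 without control replicate 2 or control replicate 3. The cause was not tested. The count of higher members, 16, ran from 13 to 16 when 1 library was left out and from 14 to 16 otherwise. The median of the tested members ran from 0.0949 to 0.26 when 1 library was left out, the highest without trSrebf1 replicate 1, and from 0.05 to 0.16 otherwise. Among the other lysosomal genes 5 were lower, 3 with the filter of 5 CPM in 3 libraries, which tests fewer genes, and 2 to 6 when 1 library was left out (2 without control replicate 2, 3 without trSrebf1 replicate 1). Same-numbered libraries did not deviate together (r = 0.003, -0.12 and -0.06 for replicates 1, 2 and 3). Only control replicate 1 correlated best with its own number, and every other library correlated better with another number. With so few libraries these values cannot decide whether same-numbered libraries were handled together, and the labels name no batch. With a replicate block, 15 members were higher and 3 lower, and 1646 genes were higher and 1174 lower in all. The 9 members under 10 CPM rest on few counts, which limits what could be detected.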

Other observations

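In one gene outside the 46, chosen after its values were seen, 1 library decided the comparison. Gnptg, a subunit of the enzyme that starts the mannose-6-phosphate tag, stood at 1.08, 10.9 and 1.60 CPM in trSrebf1 and at 4.72, 3.87 and 6.61 CPM in control cells. Its log2 fold change was -1.91 without trSrebf1 replicate 2 (adjusted p = 0.00846) and -0.21 (SE 0.81, adjusted p = 0.878) with all libraries. Over the 44 tested members, trSrebf1 replicate 2 was the highest of its group for 18 and the lowest for 12, so it did not stand apart in 1 direction.

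Both d2 and e2 forms of the V0 sector, chosen after their values were seen, were scarce. Atp6v0d2, known from osteoclasts and macrophages, had 4, 1 and 7 counts in trSrebf1 and 0 in each control library. Atp6v0e2 had 2, 6 and 3 counts in trSrebf1 and 0 in each control library. Neither passed the filter on low counts.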
